A study of Mus musculus with 4 samples.

Results

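The cytosolic ribosomal protein genes encode the proteins of the ribosome that translates nuclear mRNAs. They were taken as the rows of the deposited count table whose symbol follows the naming of these proteins: Rpl or Rps with a number and at most 1 final a, l or x, together with Rplp0 to Rplp2, Rpsa and Rpl36al. This rule found 82 of the 24062 genes in the table, 50 of the large and 32 of the small subunit. The filter on low counts left 78 of them for testing, 46 large and 32 small. The table was made from gBT-I cells, CD8+ T cells whose transgenic receptor recognises a peptide from the gB protein of herpes simplex virus. The donors were gBT-I transgenic SPF mice, and their splenocytes were stimulated in vitro by this peptide plus LPS and received what the label writes as IL-1. On culture day 4 the activated cells were injected into C57BL/6 recipients that were germ free (GF, 2 libraries) or specific pathogen free (SPF, 2 libraries). Spleen gBT-I cells were sorted from the recipients on day 7 after transfer. All 4 libraries thus come from cells that had been grown in SPF donors and activated in culture before transfer, and no library of cells before transfer was used here. Each recipient has a library numbered 1 and a library numbered 2, and the labels say neither what a number stands for nor whether libraries came from separate mice, so a p-value speaks only of variation among these 4 libraries, which may be technical.

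A ribosome is built from a large and a small subunit, each a core of ribosomal RNA with 1 copy of most of its proteins. The stalk proteins, present in more than 1 copy, recruit elongation factors to the large subunit. The mRNAs of these proteins begin with a C and a run of pyrimidines, the 5′ terminal oligopyrimidine (TOP) motif, through which mTORC1 and LARP1 control their translation together. T cells build many ribosomes when they are activated and divide.

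Promoter sequence around the annotated start was available from RefSeq (GRCm38.p6, the assembly of mm10) for 61 of the 82 genes. The following windows run from 40 bases before to 20 bases after the annotated start, on the coding strand, with the longest run of pyrimidines in capitals. Rps27l, Rps26 and Rpl31 are shown because, of the genes of at least 10 CPM (counts scaled to library size), they differed most between the libraries numbered 2 and 1. Rpl4 is shown because it differed least, and Rplp2 and Rplp0 because they encode stalk proteins.
Rps27l, chr9:66946046-66946105, plus strand: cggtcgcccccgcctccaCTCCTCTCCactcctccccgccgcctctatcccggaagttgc
Rps26, chr10:128626487-128626546, minus strand: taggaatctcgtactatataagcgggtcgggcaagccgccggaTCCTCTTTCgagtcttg
Rpl31, chr1:39367811-39367870, plus strand: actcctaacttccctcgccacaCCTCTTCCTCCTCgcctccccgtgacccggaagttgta
Rplp2, chr7:141447611-141447670, plus strand: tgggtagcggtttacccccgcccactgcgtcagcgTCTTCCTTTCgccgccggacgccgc
Rpl4, chr9:64173347-64173406, plus strand: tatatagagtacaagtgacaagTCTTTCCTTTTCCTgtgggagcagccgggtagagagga
Rplp0, chr5:115559427-115559486, plus strand: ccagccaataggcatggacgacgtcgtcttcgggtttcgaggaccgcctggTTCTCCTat

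A run of at least 8 pyrimidines lay in this window in 30 of the 61 promoters (49.2%), against 22.4% of the 8523 promoters of tested genes. The letters CTTTCC, searched on the coding strand and often lying inside such a run, were in 10 of the 61 windows (16.4%), against 2.87% of those of tested genes, and all 10 also held the run. The letters CCGGAAG, the core of ETS factor sites, were found on either strand of the full 300 bases in 24 of the 61 (39.3%), against 20.1%. A match is a description of these letters and not a site, and the start used by these cells may differ from the annotated one. Of the genes shown, Rplp0 alone has no run of 8.

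Total counts were 14431533 and 14219354 in GF libraries 2 and 1, and 14026051 and 11544960 in SPF libraries 2 and 1. The 5 CD8 T cell markers found in the table were Cd3d, Cd3e, Cd3g, Cd8a and Cd8b1. They summed to 2829 and 3214 CPM in GF libraries 2 and 1, against 2784 and 4039 CPM in SPF libraries 2 and 1. Of the 5, 4 were lower in both number 2 libraries, beside 29.6% of all tested genes. The macrophage and monocyte markers summed to 991 and 1138 CPM in GF libraries 2 and 1, against 893 and 957 CPM in SPF libraries 2 and 1. Most of that sum was Ccr2, a chemokine receptor that activated CD8 T cells also express, at 863 and 1056 CPM in GF libraries 2 and 1, against 781 and 859.7 CPM in SPF libraries 2 and 1. Lyz2, a lysozyme gene of macrophages, had at most 4.44 CPM, in GF library 1. The hemoglobin genes Hba-a1, Hbb-bs and Hbb-bt and the platelet gene Pf4 were at 0 in every library. All 5 erythroid markers summed to 0.751 to 1.57 CPM. The platelet markers summed to 4.44 and 4.37 CPM in GF libraries 2 and 1, against 3.32 and 2.10 in those of SPF. The neutrophil markers summed to at most 0.874 CPM. The CD4 T cell markers summed to 67.6 and 51.8 CPM in GF libraries 2 and 1, against 78.9 and 69.8 in those of SPF. The NK cell markers summed to 36.6 and 39.4 CPM, against 49.5 and 69.7, in the same order. Lower in GF without overlap were 2 of 3 NK and 1 of 3 CD4 markers, beside 16.4% of all tested genes. The B cell markers summed to 31.8 and 145 CPM in GF libraries 2 and 1, and 28.8 and 121 in those of SPF. All 13 of 13 were lower in both number 2 libraries, beside 29.6% of all tested genes, and none was at 0. The dendritic cell markers summed to 1019 and 759.9 CPM in GF libraries 2 and 1, against 704 and 401 CPM in SPF libraries 2 and 1, nearly all of it Itgax (CD11c), which activated CD8 T cells also express, while Flt3 had at most 0.175 CPM. The macrophage and monocyte sum and the dendritic cell sum were both higher in each GF library than in either SPF library. In these bulk samples, fewer cells of a type and less RNA per cell cannot be told apart.

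Counts of the ribosomal protein genes made up 4.54% and 6.06% of all counts in GF libraries 2 and 1, against 5.38% and 8.58% in SPF libraries 2 and 1. Of the 82 genes, 74 averaged at least 10 CPM, 44 of them large and 30 small subunit genes. The genes lie on 19 chromosomes, 4 of them (Rpl10, Rpl36a, Rpl39 and Rps4x) on X. Levels of different genes were compared per length, as RPKM (CPM divided by the length in kilobases of the shortest principal transcript). The highest mean level was that of Rplp1 at 1839 RPKM, followed by Rpl41 at 1667, Rps12 at 1640, Rps15 at 1608 and Rpl19 at 1589 RPKM. The lowest of the genes of at least 10 CPM were Rps27l at 91.2 RPKM, then Rpl35 at 434, Rpl36al at 491 and Rpl37 at 496 RPKM. Rps20 was left out of comparisons per length because its annotated transcript of 3706 nt is long for a protein of this family.

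There were 8 genes under 10 CPM, although 4 of them encode proteins that ribosomes in most tissues contain. Rpl26, a large subunit gene, had 0 counts in every library, which allows up to 0.208 to 0.260 CPM, a limit that covers counting error only. Rpl30 had 19 and 25 counts in GF libraries 2 and 1, against 18 and 21 counts in SPF libraries 2 and 1. Rpl34 had 75 and 62 counts in GF libraries 2 and 1, against 61 and 54 counts in SPF libraries 2 and 1. Rps27, a zinc finger protein of the small subunit, had 98 and 94 counts in GF libraries 2 and 1, against 111 and 60 counts in SPF libraries 2 and 1. Their mean levels of 19.2 RPKM for Rps27, 9.70 for Rpl34 and 2.71 for Rpl30 lie below that of every other such gene of at least 10 CPM. Many of these genes have near-identical copies elsewhere in the genome. Windows of 50 bases that also occur in a transcript of another gene covered 98.6% of Rps27, 76.4% of Rpl30, 71.3% of Rpl26 and 50.6% of Rpl34. High shares were also seen in well counted genes, with 95.1% for Rpl35 and 93.8% for Rpl5, and the median over 81 genes with a transcript was 57.4%. Some exons also overlap another gene, such as those of Rpl5 and Fam69a over 953 bases and of Rpl35 and Wdr38 over 646 bases, on opposite strands. How multiply mapped reads were counted is not given in the sources used here, and its part in the low counts was not tested. The other 4 of the 8 are Rpl10l, Rpl39l, Rpl3l and Rps4l.

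In the comparison of recipients, ribosomal protein genes were lower in GF recipients on average, and none passed the test in a fit with recipient alone. Of the 78 tested genes, 0 were called lower and 0 higher by edgeR's quasi-likelihood test with Benjamini-Hochberg adjustment over all 11271 tested genes at 0.05, beside a background of 0% in each direction. None had an unadjusted p under 0.05, and DESeq2 and limma-voom called 0 of them too. Over all tested genes, 363 had an unadjusted p under 0.05, DESeq2 called 9 and limma-voom 0. The fit by number below also holds recipient as a term. With number likewise added to the recipient fit, edgeR called 786 of all tested genes higher and 420 lower. Of the 78 genes, 2 were then called, Rps21 and Rps27l, both lower. The log2 fold change (GF over SPF) of the ribosomal protein genes was below 0 for 75 of the 78, against 50.3% of tested genes. Its median was -0.43, with quartiles of -0.50 and -0.35. The median over all tested genes was -0.00. The groups nevertheless overlapped: the GF libraries were both lower than either SPF library for 1 of the 78, Rps24, against 16.4% of all tested genes. The size of the difference depended on the libraries used. Without SPF library 1 the median was -0.01, with both GF libraries set against SPF library 2 alone. Leaving out SPF library 2 instead gave a median of -0.76, and leaving out GF library 1 or GF library 2 gave -0.62 or -0.26. Between the number 2 libraries alone, GF was lower than SPF for 74 of the 78 genes, with a median log2 difference of -0.19.

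The 4 libraries stood in the same order for nearly every gene. SPF library 1 was highest, then GF library 1, SPF library 2 and GF library 2, for 72 of the 78 genes, against 17.7% of all tested genes. Over the 74 genes of at least 10 CPM, the median deviation of log2 CPM from the gene's mean was -0.36 and -0.03 in GF libraries 2 and 1, against -0.18 and 0.58 in SPF libraries 2 and 1. Single genes stayed close to these medians, with a range of -0.58 to -0.17 in GF library 2, -0.12 to 0.13 in GF library 1, -0.32 to -0.05 in SPF library 2 and 0.24 to 1.01 in SPF library 1. Among libraries of the same number, GF was below SPF by a median of -0.19 for number 2 and -0.58 for number 1 on the log2 scale, and below in both for 73 of the 78 genes, against 37.4% of all tested genes. Across numbers, GF library 1 exceeded SPF library 2 by a median of 0.14, and only 3 of the 78 were lower.

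**Figure D1:**
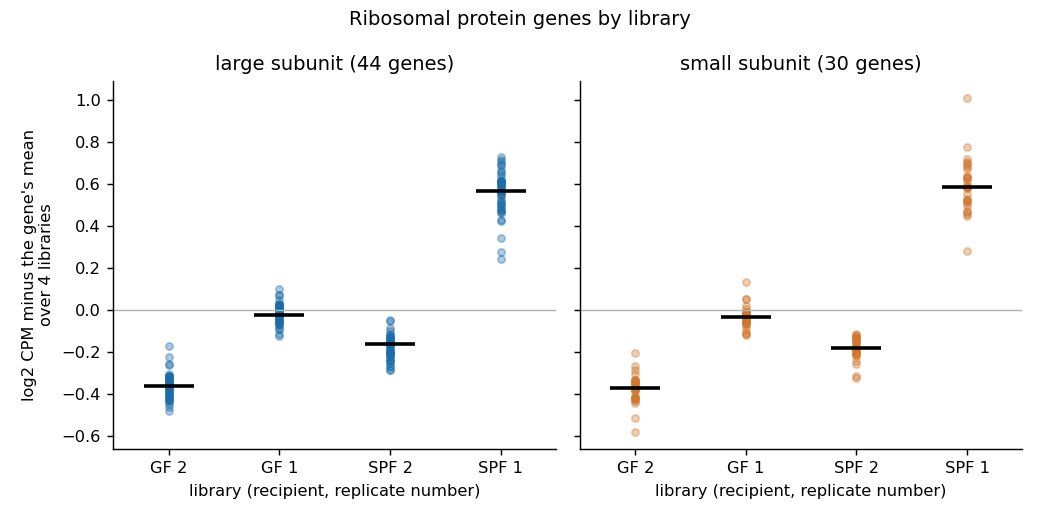
Each point is 1 ribosomal protein gene of at least 10 CPM (44 large subunit genes left, 30 small subunit genes right), as log2 CPM minus that gene's mean over the 4 libraries, and black bars are medians. GF 2 lies lowest and SPF 1 highest in both panels, with GF 1 and SPF 2 between them.

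Rps24, a small subunit protein mutated in human Diamond-Blackfan anemia, is on chr14:24487125-24496959 (mm10, plus strand, 5 annotated exons). It had 758 and 896 CPM in GF libraries 2 and 1, against 898 and 1466 CPM in SPF libraries 2 and 1. The groups are separated by only the small step between GF library 1 and SPF library 2. Its log2 fold change was -0.52 (SE 0.32, adjusted p = 0.86 by edgeR).

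Rps27l, a paralog of Rps27 that p53 induces, had the lowest log2 fold change of the tested genes, at -0.82 (SE 0.47, adjusted p = 0.86 by edgeR). It lies on chr9:66946086-66949516 on the plus strand with 4 exons, and its level was 27.6 and 38.3 CPM in GF libraries 2 and 1, against 33.0 and 83.2 CPM in SPF libraries 2 and 1. Group means were 32.9 ± 7.57 CPM in GF and 58.1 ± 35.5 CPM in SPF (SD, n = 2 each). Within number 2, GF was lower than SPF by a log2 difference of -0.26, and within number 1 by -1.12. Rps21 and Rpl37a followed with log2 fold changes of -0.58 and -0.56.

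At the other end stood 3 low-count genes, Rps4l at 0.48, Rpl34 at 0.09 and Rps27 at 0.04, each on few counts. Rpl4, which lines the exit tunnel of the large subunit, had a small difference among genes of at least 10 CPM, with a log2 fold change of -0.20 (SE 0.25, adjusted p = 0.87 by edgeR).

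In the comparison of replicate numbers, the ribosomal protein genes were lower in the number 2 libraries, and most passed the test, as a description of these libraries. A fit with recipient and number as terms called 60 of the 78 genes lower in number 2, against a background of 13.7% of all tested genes, and 0 higher, against 14.8%. The median log2 fold change (number 2 over number 1) was -0.54 with quartiles of -0.60 and -0.48, beside -0.01 over all tested genes. It was below 0 for 76 of the 78, against 50.7%. Both number 2 libraries lay below both number 1 libraries for 75 of the 78, against 29.6%. The difference was seen within each recipient, with a median of -0.34 within GF and -0.76 within SPF, and was below 0 in both for 76 of the 78 (40.4% of all tested genes). Whether it differs between recipients could not be tested with 1 library of each kind. The difference by number was larger in size than that by recipient for 75 of the 78 genes, against 62.1% of all tested genes.

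These calls depend on the fit. Without the recipient term, the test called 0 of the genes and 0 of all genes (2095 at an unadjusted p under 0.05). With the trend on transcript length removed, 2 of the 78 were called, Rps27 higher and Rps20, with its long annotated transcript, lower. All 13 B cell markers and 4 of the 5 CD8 T cell markers were also lower in both number 2 libraries, beside 29.6% of all tested genes. So were 3 of 5 dendritic cell markers, 2 of 5 macrophage and monocyte markers and at most 1 marker of each other cell type. The part of these cell types in the result was not tested.

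**Figure D2:**
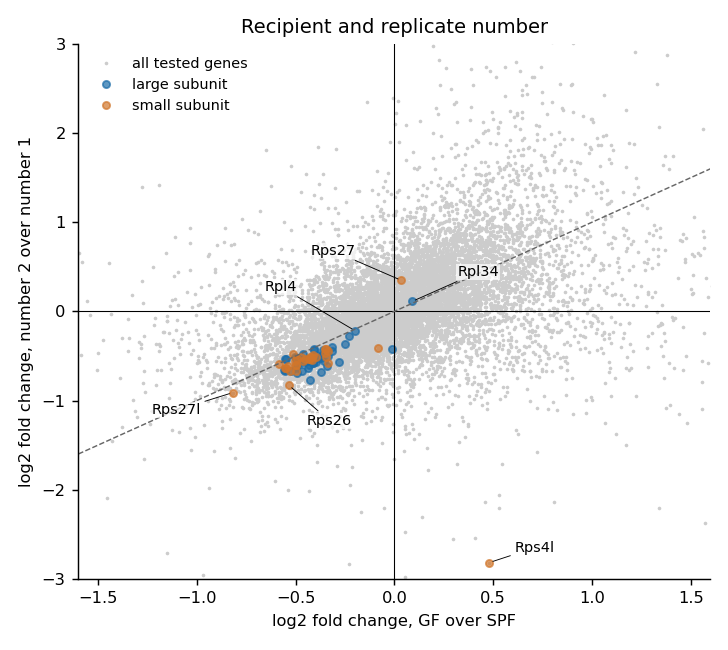
Log2 fold change by recipient (GF over SPF, x axis) against that by number (number 2 over number 1, y axis) for large and small subunit genes over all tested genes in grey; the dashed line marks equal values and 121 of the 11271 genes lie outside the axes. The ribosomal protein genes form a compact group in the lower left, mostly below the line, and both axes rest on the same 4 libraries.

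Rps26, a small subunit protein at the mRNA exit channel (chr10:128624534-128626747, minus strand, 4 exons), had 297 and 440.3 CPM in the number 2 and 1 libraries of GF, and 341 and 726 CPM in those of SPF. Both number 2 libraries were below both number 1 libraries. Its log2 fold change by number was -0.83 (SE 0.17, adjusted p = 0.00097 by edgeR). Rpl31, at the exit of the tunnel (chr1:39367842-39371911, plus strand, 5 exons), had 286 and 429 CPM in the number 2 and 1 libraries of GF, and 328 and 633 CPM in those of SPF, a log2 fold change of -0.77 (SE 0.16, adjusted p = 0.0013). Rps27l had the largest difference by number of the genes of at least 10 CPM, -0.91 (SE 0.19, adjusted p = 0.0013). Rps4l, with a fitted value of -2.82 that depends on the prior count, had under 1 CPM in every library and was the one gene under 10 CPM among the 60 called.

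Rpl4 (chr9:64173375-64178666, plus strand, 10 exons) had the smallest difference of the genes of at least 10 CPM. It had 1673 and 1850.2 CPM in the number 2 and 1 libraries of GF, and 1819 and 2225 CPM in those of SPF, with a log2 fold change by number of -0.22 (SE 0.18, adjusted p = 0.40 by edgeR). Rpl3, which lies near the peptidyl transferase centre, had 1221 and 1419.8 CPM in the number 2 and 1 libraries of GF, and 1374 and 1727 CPM in those of SPF, with a log2 fold change of -0.27 (SE 0.18, adjusted p = 0.26). The order of the libraries was the same in these genes, with smaller steps. Other genes of at least 10 CPM that missed the threshold included Rpsa and Rps3, both at an adjusted p of 0.052, and Rpl7a at 0.055.

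**Figure D3:**
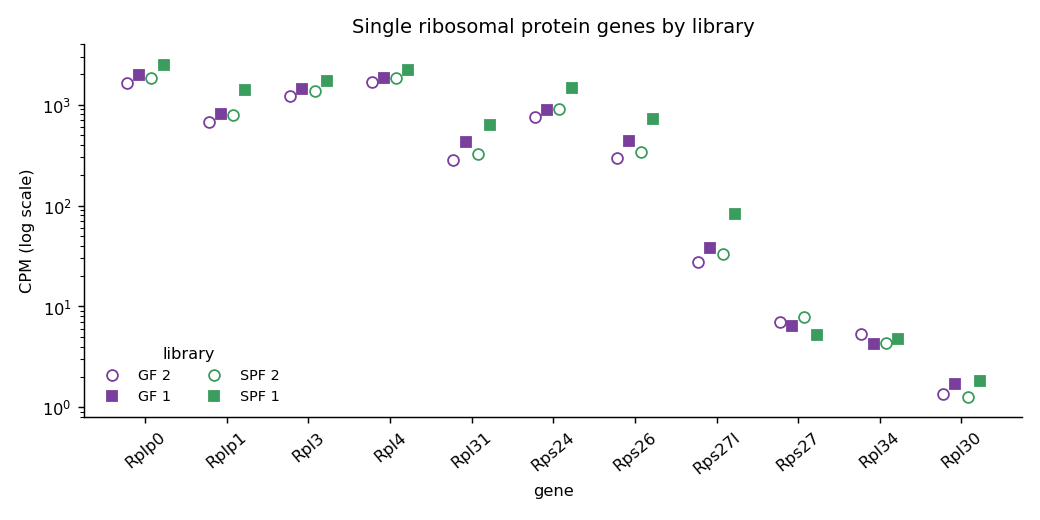
CPM on a log axis for single ribosomal protein genes in each library (GF purple, SPF green; open circles number 2, filled squares number 1). Most genes have SPF 1 on top and GF 2 at the bottom, Rpl4 and Rpl3 with smaller steps than Rps26 and Rps27l, while Rps27, Rpl34 and Rpl30 lie under 10 CPM without that order.

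The stalk proteins showed the same order of libraries. Rplp0, which anchors the stalk to the large subunit (chr5:115559467-115563727, plus strand, 7 exons), had 1632 and 1988.5 CPM in GF libraries 2 and 1, against 1825 and 2485 CPM in SPF libraries 2 and 1. Rplp0 had log2 fold changes of -0.37 by number (SE 0.19, adjusted p = 0.14 by edgeR) and -0.25 by recipient (SE 0.28). Its partner Rplp1 (chr9:61913284-61914542, minus strand, 3 exons) had 678 and 809.9 CPM in GF libraries 2 and 1, against 792 and 1391 CPM in SPF libraries 2 and 1. Rplp1 had log2 fold changes of -0.53 by number (SE 0.18, adjusted p = 0.028) and -0.55 by recipient (SE 0.34). Rplp2 (chr7:141447370-141451585, plus strand, 5 exons) had 475 and 591 CPM in GF libraries 2 and 1, against 510.1 and 992 CPM in SPF libraries 2 and 1. Rplp1 and Rplp2, which bind Rplp0 as dimers, thus passed the test by number and Rplp0 did not; a difference between them was not tested.

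Genes with roles beyond the core ribosome had the same order of libraries. Rpl5 and Rpl11, which form a complex with 5S RNA that can bind MDM2, had log2 fold changes by number of -0.42 and -0.52, of which that of Rpl11 passed the test (adjusted p = 0.022 by edgeR) and that of Rpl5 did not (adjusted p = 0.083). Rpl11 had 545 and 704 CPM in GF libraries 2 and 1, against 624 and 993 CPM in SPF libraries 2 and 1. Rpl22, which mouse alpha-beta T cells need for their development, had 286 and 345 CPM in GF libraries 2 and 1, against 337 and 585 CPM in SPF libraries 2 and 1. Rpl22 had log2 fold changes of -0.55 by recipient and -0.53 by number. Rps6, the substrate of S6 kinase, had 1008 and 1234 CPM in GF libraries 2 and 1, against 1133 and 1699.9 CPM in SPF libraries 2 and 1. Its log2 fold changes were -0.34 by recipient and -0.44 by number, and the value by number missed the threshold (adjusted p = 0.067 by edgeR). Rps19, mutated in human Diamond-Blackfan anemia, had 479 and 615 CPM in GF libraries 2 and 1, against 572 and 901 CPM in SPF libraries 2 and 1. Rpsa, also known as the laminin receptor, had 1438 and 1842 CPM in GF libraries 2 and 1, against 1717 and 2649.7 CPM in SPF libraries 2 and 1. In each of these genes SPF library 1 stood apart and the other 3 lay closer together.

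The remaining genes with known roles had log2 fold changes by recipient between -0.55 and -0.33. Rps15, needed for export of the small subunit, had -0.55, and Rps27a, made as a fusion with ubiquitin, and Rpl38, which in mouse affects translation of Hox mRNAs, both had -0.50. Rps14 had -0.50, Rpl10, which joins late in large subunit maturation, -0.36, and Rpl13a, which in human cells can leave the ribosome to silence inflammatory mRNAs, -0.35. Rpl39 of the exit tunnel had -0.35, Rps3 of the mRNA entry channel -0.35 and Rps25, used by several viral internal ribosome entry sites, -0.33. By number, Rps15, Rps27a, Rpl38, Rps14, Rpl39 and Rps25 were among the genes called lower, and Rpl10, Rpl13a and Rps3 were not.

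Paralogs whose symbols share a stem showed unequal levels. Rpl36a, which is X-linked, had 257 and 338 CPM in GF libraries 2 and 1, against 301 and 574 CPM in SPF libraries 2 and 1. Its autosomal copy Rpl36al had 183 and 241 CPM in GF libraries 2 and 1, against 208 and 402 CPM in SPF libraries 2 and 1. Both were called lower in number 2, by -0.67 each on the log2 scale, and reads of such near-identical copies may be shared. Rpl36al also overlaps exons of Gm49383 over 332 bases on the same strand. Rpl10l, Rpl3l and Rpl39l were at or near 0. Rpl10l had 0 counts in every library, while Rpl3l, the copy used in striated muscle, had 0 and 1 counts in GF libraries 2 and 1, against 1 and 0 in SPF libraries 2 and 1. Rpl39l, best known from testis, had 9 and 3 counts in GF libraries 2 and 1, against 4 and 7 counts in SPF libraries 2 and 1. Rps27 and Rps27l were the one pair in which the copy with the final l had the higher level per length, 91.2 RPKM for Rps27l against 19.2 RPKM for Rps27, beside the shared sequence of Rps27 given above.

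The large and small subunits kept nearly the same proportion in every library. Large subunit genes summed to 28422 and 35585 CPM in GF libraries 2 and 1, against 32271 and 51663 CPM in SPF libraries 2 and 1. Small subunit genes summed to 18463 and 23232 CPM in GF libraries 2 and 1, against 21069 and 34847 CPM in SPF libraries 2 and 1. The ratio of large to small was 1.54 and 1.53 in GF libraries 2 and 1, against 1.53 and 1.48 in SPF libraries 2 and 1, with means of 1.54 ± 0.00544 in GF and 1.51 ± 0.0347 in SPF (SD, n = 2 each). An exact two-sided permutation test over libraries gave p = 0.33 for the ratio, the smallest that 2 against 2 libraries allow. Summed over both subunits, the genes had 52851 ± 8436 CPM in GF and 69924 ± 23454 CPM in SPF (SD, n = 2 each), a log2 ratio of -0.40 with an exact two-sided permutation p of 0.67. Within number 2 the log2 ratio of GF to SPF was -0.19 and within number 1 it was -0.56.

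**Figure D4:**
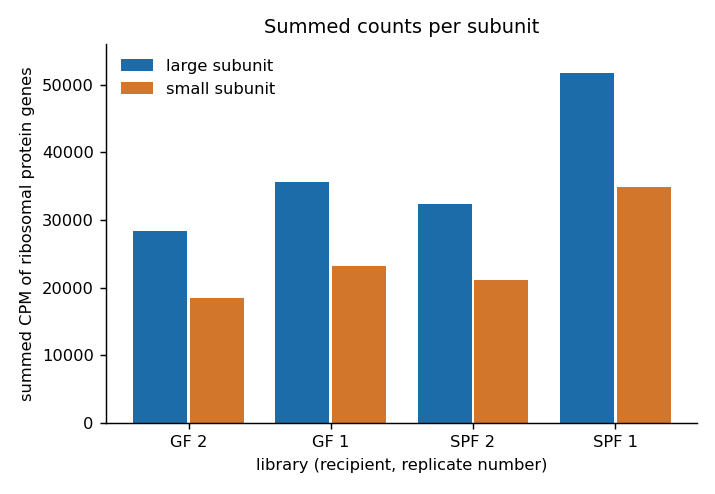
Bars give the summed CPM of large (blue) and small (orange) subunit genes in each library, from 0, without error bars since each is 1 library. Both subunits are lowest in GF 2 and highest in SPF 1, and their ratio stays between 1.48 and 1.54.

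By recipient, the median log2 fold change was -0.41 for the 46 large and -0.44 for the 32 small subunit genes. By number it was -0.54 for both, with 35 of 46 large and 25 of 32 small subunit genes called lower in number 2. Of all tested genes, 13.7% were called lower in number 2. The single genes of each subunit spread over more than the distance between these medians, from -0.56 to 0.09 by recipient for large and from -0.82 to 0.48 for small subunit genes.

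Ribosomal protein mRNAs are short, and length went with the differences. The median transcript length of the 78 genes was 705 nt, against 2694 nt over all tested genes. Across 73 genes of at least 10 CPM without Rps20, the Spearman correlation of length with the log2 fold change was 0.58 by number and 0.50 by recipient. Across 11194 tested genes with a length it was 0.58 and 0.41. Mean CPM also went with the log2 fold change across the 73 genes, at a Spearman correlation of 0.64 by number and 0.52 by recipient. These are descriptions over genes that share the same 4 libraries. With the length trend of all genes removed, the median of the 78 genes was 0.03 by number and -0.04 by recipient. The part of length in the differences between libraries cannot be told apart from that of belonging to the family, since nearly all of its genes are short. The share of windows found in other transcripts went little with the difference by number, at a Spearman correlation of -0.04. By number, the 27 genes of at least 10 CPM with a run of at least 8 pyrimidines had a median of -0.54. The 28 with a promoter sequence and no such run had -0.54 too. The run could lie anywhere from 40 bases before to 20 bases after the annotated start.

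**Figure D5:**
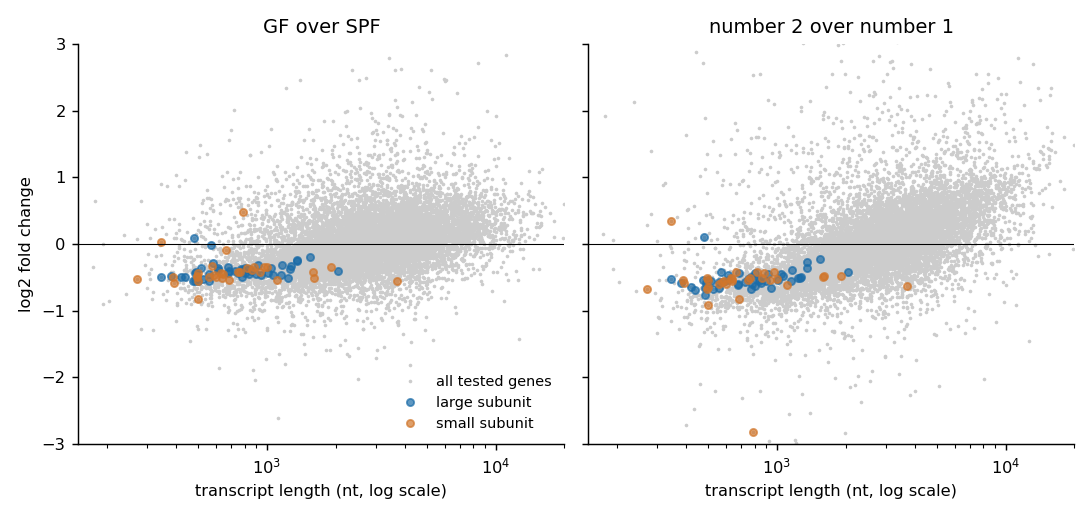
Log2 fold change against transcript length on a log axis, by recipient (GF over SPF, left) and by number (number 2 over number 1, right), for large and small subunit genes over all tested genes in grey; 115 and 152 of the 11194 genes with a length lie outside the axes. The ribosomal protein genes lie at the short end, within the cloud of other short genes.

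Other genes of the ribosome and its production were set beside the family. A further 5 genes with other names, for subunit proteins or paralogs, had a median log2 fold change of -0.43 by recipient, 0 of 5 called. By number their median was -0.52, with 3 of 5 called lower, beside 13.7% of all tested genes. Without SPF library 1 their median by recipient was -0.00, and with the length trend removed the medians were -0.03 by recipient and -0.01 by number. Fau, a small subunit protein made as a fusion with a ubiquitin-like protein, had 565 and 762 CPM in GF libraries 2 and 1, against 655 and 1232 CPM in SPF libraries 2 and 1. Rpl22l1, a paralog of Rpl22, was also called lower in number 2. Gnb2l1 (RACK1), a scaffold on the small subunit, had log2 fold changes of -0.22 by recipient and -0.35 by number without passing either test, and Rpl7l1 did not pass either. Rps3a1, outside the naming rule and chosen after its values were seen, had -0.36 by recipient and -0.45 by number.

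The 77 mitochondrial ribosomal protein genes had a median of -0.44 by recipient, 0 called and all 77 below 0, and of -0.62 by number, 56 called lower and 0 higher, beside 13.7% and 14.8% of all tested genes. Without SPF library 1 the median by recipient was -0.01, and without SPF library 2 it was -0.75. Mrpl17, a protein of the large mitochondrial subunit, was called lower in number 2, with 15.9 and 27.2 CPM in the number 2 and 1 libraries of GF, and 18.5 and 43.2 CPM in those of SPF. With the length trend removed their medians were -0.23 by recipient and -0.18 by number, against -0.04 and 0.03 for the cytosolic family.

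Ribosome assembly factors, 49 tested, had a median of -0.21 by recipient, with 42 below 0 and 0 called, and of -0.08 by number, with 11 called lower and 6 higher, beside 13.7% and 14.8% of all tested genes. The GF libraries were both lower than either SPF library for 21 of the 49, beside 16.4% of all tested genes. Without SPF library 1 the median by recipient was -0.17. With the length trend removed the medians were -0.15 by recipient and -0.09 by number. Grwd1, a histone-binding factor of large subunit assembly, had 23.5 and 26.4 CPM in GF libraries 2 and 1, against 33.8 and 48.0 CPM in SPF libraries 2 and 1. Its log2 fold change was -0.71 (SE 0.26, adjusted p = 0.86 by edgeR). Mdn1, a very large ATPase of large subunit maturation, was called higher in number 2, with 326 and 120.0 CPM in the number 2 and 1 libraries of GF, and 318 and 94.0 CPM in those of SPF. Among 20 genes of RNA polymerase I and its factors, the median was -0.20 by recipient with 0 called, and -0.19 by number with 8 called lower and 3 higher, beside the same shares; without SPF library 1 the median by recipient was -0.10, and with the length trend removed the medians were -0.11 by recipient and -0.05 by number.

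Of 19 elongation factors and other genes with TOP mRNAs, 0 were called by recipient (median -0.36), and 4 were called lower and 0 higher by number (median -0.36), beside 13.7% and 14.8% of all tested genes. Without SPF library 1 the median by recipient was -0.06, and with the length trend removed it was -0.12 by recipient and -0.06 by number. Eef1b2, an exchange factor of elongation, had 534 and 739.5 CPM in GF libraries 2 and 1, against 666 and 1217 CPM in SPF libraries 2 and 1. Vim, an intermediate filament gene with a TOP mRNA, had 1580.0 and 1805 CPM in GF libraries 2 and 1, against 1118 and 1327 CPM in SPF libraries 2 and 1, a log2 fold change by recipient of 0.47 (SE 0.25, adjusted p = 0.86 by edgeR). Of 19 genes listed under control of TOP mRNAs, a list that also holds Mycn, 0 were called by recipient (median 0.01). By number, 1 was called lower and 6 higher (median 0.12), beside the same shares. Without SPF library 1 the median by recipient was -0.04, and with the length trend removed the medians were -0.08 by recipient and -0.15 by number. Mycn, a transcription factor gene, had a log2 fold change by recipient of 2.46 (SE 0.605, adjusted p = 0.86 by edgeR) at up to 2.25 CPM. Mtor, the kinase of mTORC1, had 77.8 and 42.7 CPM in the number 2 and 1 libraries of GF, and 60.4 and 24.98 CPM in those of SPF, and was called higher in number 2 by 1.06 (SE 0.17) on the log2 scale.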

How the data were processed

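RNA was measured in 2 GF and 2 SPF libraries (TruSeq RNA kit, 1 µg of total RNA, Genome Analyzer IIx). The deposited values are the authors' raw read counts per gene, whole numbers and not normalized. The submitters' processing notes name mm10 as build and, as tools, featureCounts, Subread, TopHat, CASAVA, Picard and edgeR; the sources used here give neither versions nor settings. Without strand, reads of overlapping genes cannot be told apart.

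The tests used edgeR 4.0.16 (R 4.3.3) on these counts (TMM scaling, filterByExpr, two-sided quasi-likelihood F test, Benjamini-Hochberg over 11271 genes, threshold 0.05). The recipient fit had no covariate and the fit by number had recipient as covariate. Standard errors are the log2 fold change over the square root of F. Differences between 2 libraries used log2 CPM with a prior count of 2. CPM used the TMM-scaled library size. A count of 0 allows up to 3 counts. The steps were tested on simulated data whose spread between libraries (dispersion 0.017) was that of the fit by number. The recipient fit had a common dispersion of 0.0763, so its power in these data was not tested. Within-group libraries differed by more than sampling noise (chi-square per degree of freedom 46.6 in GF and 92.4 in SPF), and each was counted once. Across recipients the value ran from 19.3 (GF 2 with SPF 2) to 150 (GF 2 with SPF 1). These values cannot show whether libraries came from separate samples.

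Lengths and exons came from GENCODE M21 (the shortest principal transcript, 99.3% of tested genes), and starts from RefSeq. The length trend was removed by lowess (span 0.3). Alternatives were scaling, filters, DESeq2 1.42.0, limma-voom 3.58.1, length, other terms in the fit and each library left out. Genes were named by a rule: stalk proteins, genes with known roles, paralogs, extremes by level and by fold change, genes whose recipients do not overlap, and the 2 genes with the smallest p per contrast in each other list. The family, the lists and the rules were chosen with earlier results of these data known. A few genes named by this rule were left out of the text.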

Additional observations from a re-analysis of the deposited data

Results flagged for a closer look

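Rpl34 differed in opposite directions by number in the 2 recipients, with a log2 difference (number 2 minus number 1) of 0.33 in GF and -0.13 in SPF. The difference between recipients was not tested, and the gene had 54 to 75 counts per library.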

How the results depend on the processing

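The count of genes called by recipient, 0 with edgeR, was 9 with DESeq2 (8 higher, 1 lower) and 1206 with a replicate block (786 higher, 420 lower), and 0 to 1327 with 1 library left out; without SPF replicate 1 it was 17 and without SPF replicate 2 it was 1327. Of the ribosomal protein genes, 2 were called under the replicate block (Rps21 and Rps27l, both lower, with log2 fold changes of -0.53 and -0.70), and 0 to 15 with 1 library left out. No label says that a number marks a shared animal, day or batch; same-numbered libraries deviated together across genes (correlation 0.71). The median by recipient ranged from -0.76 to -0.01 with 1 library left out, and the log2 ratio of the summed CPM from -0.711 to -0.013. By number, DESeq2 called 1793 genes (1033 higher, 760 lower), removal of the length trend left 1578 (892 higher, 686 lower) and the fit without the recipient term 0; of the ribosomal protein genes these gave 63, 2 and 0. With the length trend removed, the median by number was 0.03 (large 0.02, small 0.04), the difference between large and small subunit medians by recipient was 0.004 in place of 0.03, and by number Rplp1 was 0.13, Rpl3 0.09 and Rpl4 0.07. The cause of these shifts was not tested. Fits by number with 1 library left out have no residual degrees of freedom; their medians, with no test, ran from -0.77 to -0.33. Leaving out members under 10 CPM, chosen after seeing the data, gave 59 genes called by number. Counts limit precision most for the genes under 10 CPM.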
